A study of Mus musculus with 24 samples.

Results

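The nicotinic acetylcholine receptor of skeletal muscle and the genes that gather it at the synapse were followed through 8 genes: the receptor subunits Chrna1 (alpha), Chrnb1 (beta), Chrnd (delta), Chrng (gamma) and Chrne (epsilon), and the clustering genes Musk, Rapsn and Dok7. They were chosen by name from the 24043 gene symbols of the deposited expression table. All 8 are present, and 7 of them passed the filter on low values, which asked for a group mean of 1 FPKM or more in 1 of the groups. Chrne did not.

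The cells were C2C12, an established mouse myoblast line that fuses into myotubes when serum is reduced. Growth medium was DMEM with 10% fetal bovine serum, and differentiation medium was DMEM with 2% horse serum and an ITS supplement, with medium changes on days 2, 3 and 4. Each medium was combined with 21% oxygen (called normoxia here) and with 2% oxygen (hypoxia), which gives 4 groups with 2 RNA libraries (A and B) each, 8 of the 24 samples of the series. The labels give neither the length of differentiation nor that of hypoxia, and no genetic change or further agent in any group. They call A and B biological replicates without naming separate cultures, so p-values measure the spread between these libraries, which may be partly technical. A line grown without nerve is a model of the muscle side of the synapse alone.

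At the neuromuscular junction, acetylcholine released by the motor nerve opens a pentameric receptor in the muscle membrane. The fetal receptor holds the gamma subunit, which the epsilon subunit replaces in the adult, while alpha, beta and delta are shared. Nerve-derived agrin binds Lrp4, which activates the receptor tyrosine kinase MuSK. Dok7 is the cytoplasmic activator of MuSK, and rapsyn, the product of Rapsn, anchors receptors in dense clusters. Myogenic factors such as MyoD and myogenin act on receptor genes through E-boxes, and the N-box is a motif of synapse-restricted transcription bound by GABP.

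RefSeq promoter entries were at hand for 6 of the 8 genes (Chrna1, Chrnb1, Chrng, Chrne, Musk and Dok7). The 250 bases before the annotated start of 5 of them are shown because their E-box content sets the receptor genes side by side with the levels that follow. Sequences are 5′ to 3′ on the gene's strand in GRCm38.p6, and capitals mark E-boxes (CANNTG) and, in Chrne, the N-box (CCGGAA).
Chrna1 (chr2:73580339-73580588, minus strand): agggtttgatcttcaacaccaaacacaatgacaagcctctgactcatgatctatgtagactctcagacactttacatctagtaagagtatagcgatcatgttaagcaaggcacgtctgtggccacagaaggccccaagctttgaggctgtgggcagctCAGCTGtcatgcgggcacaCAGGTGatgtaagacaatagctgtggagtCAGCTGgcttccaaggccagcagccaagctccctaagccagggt
Chrnb1 (chr11:69795938-69796187, minus strand): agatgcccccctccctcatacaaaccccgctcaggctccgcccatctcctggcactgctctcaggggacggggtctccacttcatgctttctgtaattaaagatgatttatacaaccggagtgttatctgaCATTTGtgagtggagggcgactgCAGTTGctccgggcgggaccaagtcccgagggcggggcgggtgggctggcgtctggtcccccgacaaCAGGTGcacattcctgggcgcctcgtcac
Chrng (chr1:87205561-87205810, plus strand): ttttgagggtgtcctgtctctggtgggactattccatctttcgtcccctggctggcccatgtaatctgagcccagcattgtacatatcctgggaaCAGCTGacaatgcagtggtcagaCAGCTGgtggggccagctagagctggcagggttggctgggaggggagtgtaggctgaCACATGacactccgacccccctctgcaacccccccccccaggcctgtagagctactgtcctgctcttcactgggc
Chrne (chr11:70619195-70619444, minus strand): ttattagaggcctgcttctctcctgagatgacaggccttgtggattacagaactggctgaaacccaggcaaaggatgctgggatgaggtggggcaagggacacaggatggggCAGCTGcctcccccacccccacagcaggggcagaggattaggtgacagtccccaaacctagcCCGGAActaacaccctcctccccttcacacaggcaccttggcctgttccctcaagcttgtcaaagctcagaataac
Musk (chr4:58285712-58285961, plus strand): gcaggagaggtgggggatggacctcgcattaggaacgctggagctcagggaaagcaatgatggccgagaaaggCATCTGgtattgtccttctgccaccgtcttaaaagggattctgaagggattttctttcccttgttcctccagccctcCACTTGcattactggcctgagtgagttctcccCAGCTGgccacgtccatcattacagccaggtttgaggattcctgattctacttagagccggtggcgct
The windows of Chrna1, Chrnb1, Chrng and Musk each held 3 E-boxes, against 12.2% of 32851 RefSeq promoters of the same length with 3 or more. Chrne held 1, and the 2 annotated starts of Dok7 held 1 and 0; 66.2% of all promoters held at least 1. The form CAGCTG, which is its own reverse complement and lies within the E-box pattern, occurred at 2 places in Chrna1 and in Chrng and at 1 in Chrne and in Musk. It was present in 13.0% of all promoters and at 2 or more places in 1.26%. The N-box, searched on both strands, was found in the Chrne window, 76 to 71 bases before the start, and in 12.03% of all promoters. A match is a description of the letters in the window.

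Each library had 14917 to 15672 genes above 0 FPKM, and absolute depth is unknown. Relative depth came from the most common ratio of values under 0.5 FPKM between a library and A of hypoxic differentiation medium (set to 1). It ranged from 0.633 to 1, and both extremes were libraries of hypoxic differentiation medium (B and A). Those libraries also stood apart in their agreement: 613 of the 12389 tested genes were more than 2-fold apart on the log2(FPKM + 1) scale, against 56 to 71 in the other groups. The proliferation gene Mki67 was 3.46 FPKM in A and 23.6 in B. By markers, differentiation medium gave myotube levels in normoxia and not in hypoxia. The summed FPKM of 6 myotube markers (Myog, Myh3, Ckm, Acta1, Tnnt3, Tmem8c) was 25.2 to 32.9 in normoxic growth medium, 7628 to 7646 in normoxic differentiation medium, 3.43 to 3.80 in hypoxic growth medium and 9.72 to 17.4 in hypoxic differentiation medium. The 5 myoblast markers (Myod1, Myf5, Des, Pax7, Cdh15) summed to 414 to 492, 780 to 794, 123 to 130 and 66.6 to 94.8 FPKM in the same order. Des was the largest part of this sum in every library, and the markers did not all move together. Pax7 was at 26.6 and 27.3 FPKM in normoxic growth medium and at 15.9 and 15.1 in normoxic differentiation medium. Cdh15 was at 12.2 to 12.5 FPKM in the hypoxic libraries. The myotube sum has the group order of 6 of the 8 genes described below, while the myoblast sum is lower in hypoxic differentiation than in hypoxic growth medium, where most of those genes are higher. Within hypoxic differentiation medium, each of the 6 myotube markers was higher in A and each of the 8 genes was higher in B. The part of either marker sum in those results was not tested. Of 6 motor neuron markers, Chat, Slc18a3 and Mnx1 were listed at 0 in every library. Nefl, a neurofilament gene, was at 11.3 and 10.4 FPKM in normoxic growth medium, which left a summed level of 11.2 to 11.7 there, 0.267 to 0.436 in normoxic differentiation medium, 2.86 to 4.27 in hypoxic growth medium and 0.334 to 0.348 in hypoxic differentiation medium. The 5 Schwann cell markers summed to 0.547 to 1.25 FPKM over all libraries, and 4 adipocyte markers to 0.111 to 1.18.

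In normoxia, transfer to differentiation medium raised 6 of the 7 tested genes and lowered 1, Rapsn. In hypoxia the same transfer raised 5 and left Musk and Rapsn without a call. Differentiation in hypoxia, here and below, names this change of medium, since the markers did not reach myotube levels at 2% oxygen. With hypoxia, all 7 were lower at 2% than at 21% oxygen in growth medium, and all 7 in differentiation medium. Of the tested genes, the delta and gamma subunits had the largest hypoxia changes, and both were below 1.6 FPKM in every hypoxic library. In bulk RNA, fewer cells of a type and less RNA per cell cannot be told apart.

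**Figure D1:**
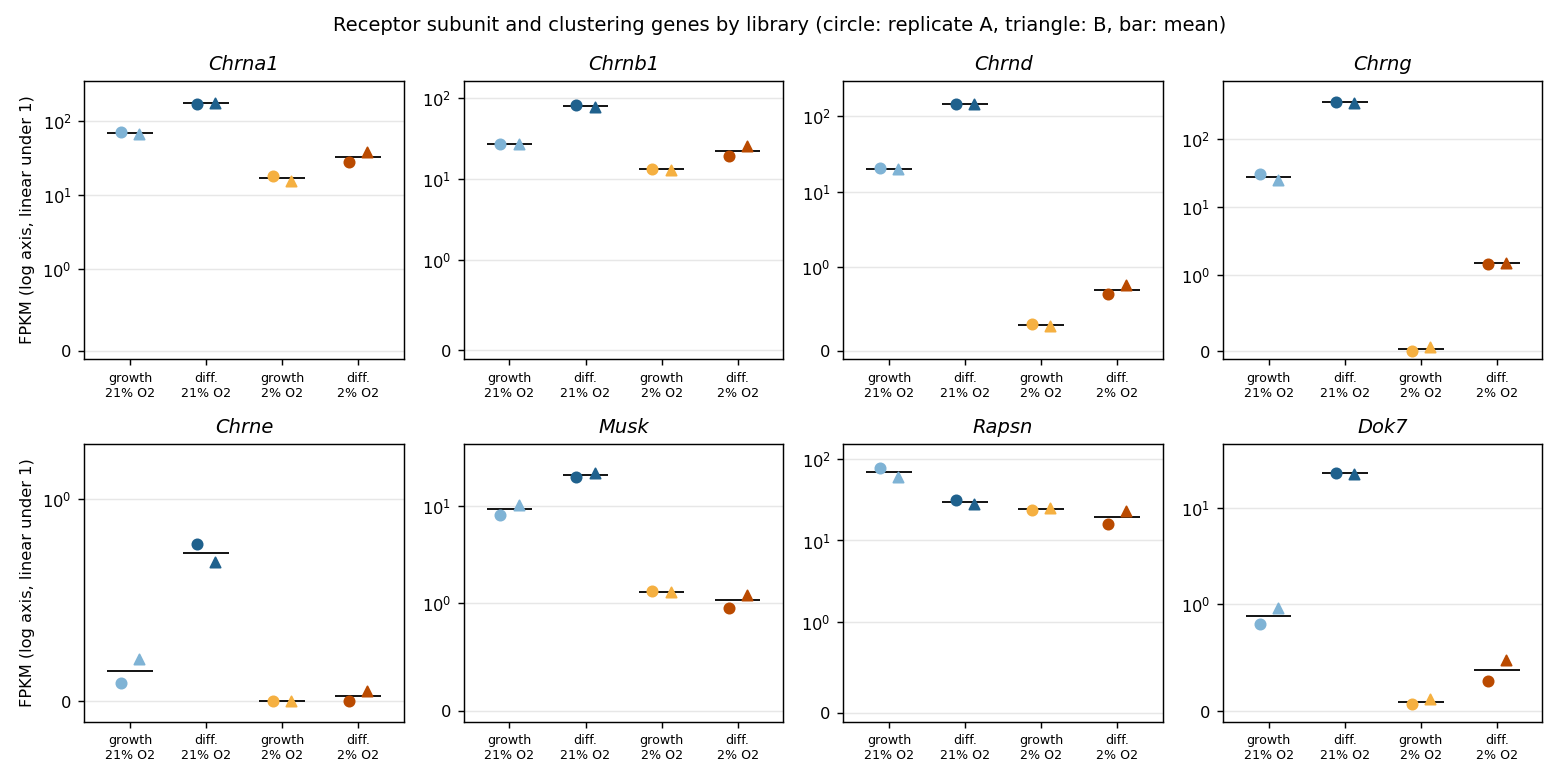
FPKM of the 8 receptor and clustering genes in each library, on a logarithmic axis that is linear under 1 FPKM. Circles are replicate A, triangles replicate B and bars the mean of 2 libraries. In every panel the 4 libraries at 2% oxygen lie below the 4 at 21% oxygen. For Chrne the gap is between 0.0491 and 0.0896 FPKM. The share of all genes with this order was not counted.

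Among the subunits, Chrna1, which carries most of each acetylcholine binding site, took the largest share of subunit transcripts in 6 of the 8 libraries. Chrna1 was at 70.3 (A) and 66.3 FPKM (B) in normoxic growth medium, 171.9 and 173.1 in differentiation medium at 21% oxygen, 17.8 and 15.5 in hypoxic growth medium, and 27.7 and 38.0 in hypoxic differentiation medium. The groups did not overlap, and every normoxic library was above every hypoxic one. By group means it was 2.53-fold higher on differentiation in normoxia and 1.97-fold in hypoxia, and hypoxia lowered it 4.10-fold in growth medium and 5.25-fold in differentiation medium. With limma on log2(FPKM + 1), with Benjamini-Hochberg adjustment over all genes tested, the differentiation change was 1.32 ± 0.15 (log2 change ± SE, adjusted p = 0.000274) in normoxia and 0.93 ± 0.15 (adjusted p = 0.00389) in hypoxia. The hypoxia change was -1.98 ± 0.15 (adjusted p = 0.000205) in growth medium and -2.37 ± 0.15 (adjusted p = 1.95e-05) in differentiation medium. All later adjusted p-values are from the same limma fit.

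Chrnb1 encodes the beta subunit, a subunit that rapsyn contacts. It was at 27.3 and 27.1 FPKM in normoxic growth medium and 81.6 and 78.9 in differentiation medium at 21% oxygen. At 2% oxygen it was at 13.5 and 12.8 FPKM in growth medium and 19.3 and 25.6 in differentiation medium. The order of groups was that of Chrna1, without overlap, although the higher hypoxic differentiation library (B) came close to normoxic growth medium. Differentiation raised it 2.95-fold in normoxia (adjusted p = 7.28e-05) and 1.70-fold in hypoxia (adjusted p = 0.00580). Hypoxia lowered it 2.06-fold in growth medium (adjusted p = 0.00139) and 3.58-fold in differentiation medium (adjusted p = 3.36e-05).

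Chrnd, the delta subunit, was at 20.7 and 19.6 FPKM in growth medium and 144.6 and 146.3 in differentiation medium at 21% oxygen. At 2% oxygen it was at 0.315 and 0.297 FPKM in growth medium and 0.671 and 0.789 in differentiation medium. The hypoxic libraries were all under 1 FPKM, and the 4 groups did not overlap. Differentiation raised the mean 7.22-fold in normoxia and 2.38-fold in hypoxia, the latter between levels under 1 FPKM. Hypoxia lowered it 65.8-fold in growth medium and 199.3-fold in differentiation medium. On the log2(FPKM + 1) scale, which understates the change of low genes, the 2 hypoxia changes were -4.02 ± 0.09 (adjusted p = 2.67e-06) and -6.40 ± 0.09 (adjusted p = 1.40e-07). The differentiation changes were 2.79 ± 0.09 (adjusted p = 1.25e-06) in normoxia and 0.40 ± 0.09 (adjusted p = 0.0128) in hypoxia. The last was not called without hypoxic growth medium A (adjusted p = 0.0637) or B (adjusted p = 0.0733).

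Chrng, the fetal gamma subunit, held the highest single level of the 8 genes, 347.2 and 327.2 FPKM in normoxic differentiation medium, after 30.3 and 24.7 in normoxic growth medium. It was listed in hypoxic growth medium at 0 in A and at 0.0597 in B, and in hypoxic differentiation medium at 1.48 and 1.51. The groups did not overlap. It was 12.3-fold higher on differentiation in normoxia, a change of 3.57 ± 0.11 (adjusted p = 1.24e-06). Within hypoxia the change was 1.28 ± 0.11 (adjusted p = 0.000601), and no fold is given against a group with a library at 0. Hypoxia lowered it 225.7-fold in differentiation medium (adjusted p = 1.40e-07), and the fitted change in growth medium was -4.79 ± 0.11 (adjusted p = 3.05e-06).

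Chrne, the adult epsilon subunit, stayed below 1 FPKM in every library. It was at 0.0896 and 0.207 FPKM in normoxic growth medium, 0.774 and 0.690 in differentiation medium at 21% oxygen, 0 and 0 in hypoxic growth medium, and 0 and 0.0491 in hypoxic differentiation medium. After adjustment for relative depth these values were whole multiples, to within 0.004, of the smallest of them: 2, 6, 17, 19, 0, 0, 0 and 1 units in that order. If a unit is 1 fragment, a count of 0 allows up to 3 units, which is 0.105 and 0.111 FPKM in the libraries of hypoxic growth medium, a limit for counting error alone. Normoxic differentiation medium was thus above all other libraries, and the hypoxic groups overlapped. In a fit without the filter, over 17914 genes, Chrne was higher on differentiation in normoxia by 0.59 ± 0.06 (adjusted p = 0.000380), lower in hypoxia by -0.76 ± 0.06 in differentiation medium (adjusted p = 0.000146) and by -0.20 ± 0.06 in growth medium (adjusted p = 0.0469), and not called on differentiation in hypoxia (adjusted p = 0.716).

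FPKM is per length, so levels of the subunits can be set side by side within a library. Gamma made up 99.7% and 99.2% of the summed gamma and epsilon level in normoxic growth medium, 99.8% in both libraries of normoxic differentiation medium, 100% in B of hypoxic growth medium, and 100% and 96.8% in hypoxic differentiation medium. In A of hypoxic growth medium both were at 0. In B, gamma itself (0.0597 FPKM) was under the limit of 0.111 that a count of 0 allows for epsilon, so the share there does not tell which was higher. The 5 subunits together summed to 148.7 and 138.0 FPKM in normoxic growth medium, 746 and 726 in differentiation medium at 21% oxygen, 31.7 and 28.7 in hypoxic growth medium, and 49.2 and 65.9 in hypoxic differentiation medium.

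The make-up of that sum also differed between the oxygen levels. Gamma took 20.4% and 17.9% of it in normoxic growth medium and 46.5% and 45.1% in normoxic differentiation medium, but 0% and 0.208% in hypoxic growth medium and 3.01% and 2.29% in hypoxic differentiation medium. Delta took 13.9% to 20.1% in the normoxic libraries and 0.995% to 1.36% in the hypoxic ones. Alpha and beta filled the rest: alpha was 54.0% to 57.7% and beta 38.8% to 44.8% of the sum in the 4 hypoxic libraries. Per unit of alpha, delta was 0.294 and 0.296 in normoxic growth medium, 0.841 and 0.845 in differentiation medium at 21% oxygen, and 0.0177 to 0.0242 in the hypoxic libraries, while beta was 0.389 to 0.474 in normoxia and 0.672 to 0.829 in hypoxia. These shares and ratios are descriptions, with no test.

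**Figure D2:**
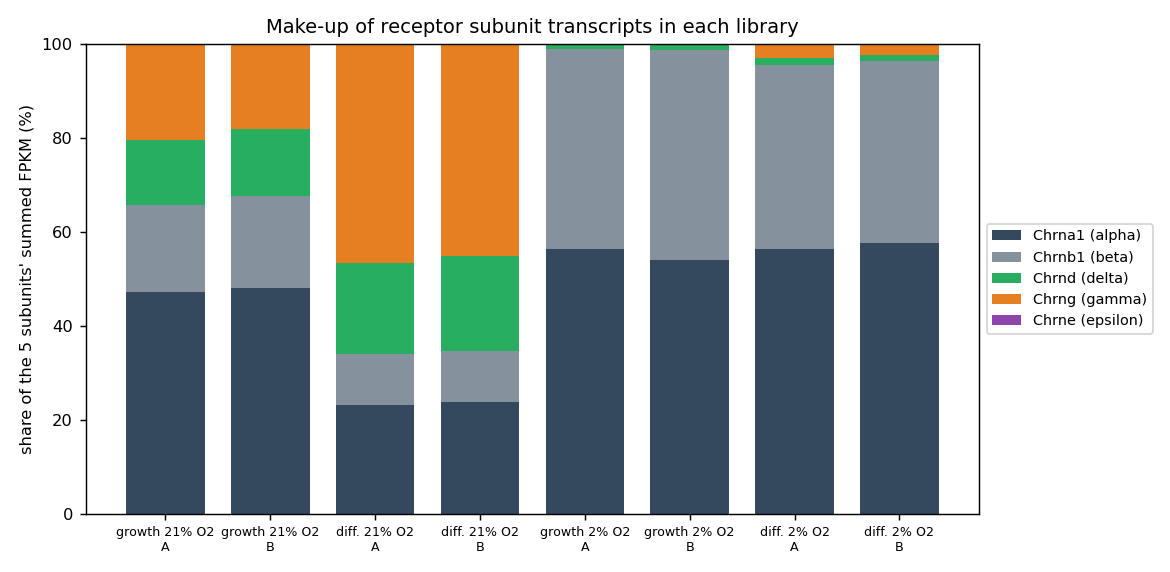
Share of each subunit in the summed FPKM of the 5 receptor subunits, in percent, with 1 bar per library. Gamma and delta together fill over 30% of every normoxic bar and under 5% of every hypoxic bar, and epsilon is too small to be seen.

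Of the clustering genes, Musk encodes the kinase through which agrin acts. It was at 8.08 and 10.1 FPKM in normoxic growth medium, 19.5 and 21.6 in differentiation medium at 21% oxygen, 1.31 and 1.29 in hypoxic growth medium, and 0.948 and 1.20 in hypoxic differentiation medium. Differentiation raised it 2.26-fold in normoxia (1.10 ± 0.14, adjusted p = 0.000424). In hypoxia the libraries in differentiation medium lay below those in growth medium, by 1.21-fold, and this difference was not called (-0.15 ± 0.14, adjusted p = 0.404). Hypoxia lowered it 6.99-fold in growth medium (adjusted p = 0.000110) and 19.2-fold in differentiation medium (adjusted p = 2.76e-06).

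Rapsn, the scaffold that binds receptors directly, had another order. It was highest in normoxic growth medium, at 76.7 and 59.6 FPKM, and lower in normoxic differentiation medium, at 31.0 and 27.7. Hypoxic growth medium gave 23.7 and 24.8, and hypoxic differentiation medium 15.9 and 23.1. Neighbouring groups in this order did not overlap, but the gaps from the second group downward were small beside the spread of hypoxic differentiation medium. Rapsn fell 2.32-fold on differentiation in normoxia (-1.18 ± 0.19, adjusted p = 0.00148), while the other 6 tested genes rose. In hypoxia the difference was 1.24-fold in the same direction and not called (-0.32 ± 0.19, adjusted p = 0.214), although it was called without library B of hypoxic differentiation medium (-0.58, adjusted p = 0.0252). Hypoxia lowered Rapsn 2.81-fold in growth medium (adjusted p = 0.00152) and 1.51-fold in differentiation medium (-0.59 ± 0.19, adjusted p = 0.0304). That last call was lost without A of hypoxic differentiation medium (-0.33, adjusted p = 0.105) and in 5 other alternatives, among them leaving out either normoxic differentiation library (adjusted p = 0.148 and 0.0805) or either hypoxic growth library (adjusted p = 0.0532 and 0.0540). Per unit of Chrna1, Rapsn was 1.09 and 0.899 in normoxic growth medium, 0.180 and 0.160 in differentiation medium at 21% oxygen, 1.33 and 1.60 in hypoxic growth medium, and 0.573 and 0.607 in hypoxic differentiation medium.

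Dok7, the activator of MuSK, passed the filter through normoxic differentiation medium alone. It was at 0.817 and 0.967 FPKM in normoxic growth medium, 23.0 and 22.6 in differentiation medium at 21% oxygen, 0.0637 and 0.112 in hypoxic growth medium, and 0.283 and 0.478 in hypoxic differentiation medium. The groups did not overlap, and normoxic differentiation medium stood above the rest. Differentiation in normoxia raised it 25.6-fold by group means, the largest such ratio among the 8 genes in that comparison (3.65 ± 0.11, adjusted p = 9.58e-07). Hypoxia lowered it 59.9-fold in differentiation medium (adjusted p = 5.25e-07). In growth medium the hypoxia change was -0.80 ± 0.11 (adjusted p = 0.00184), between levels under 1 FPKM. The rise on differentiation in hypoxia, 0.34 ± 0.11 (adjusted p = 0.0459), lay near the threshold and was lost under 11 alternatives, with adjusted p from 0.0506 to 0.195. They included leaving out any library but A of hypoxic differentiation medium, and the replicate block (adjusted p = 0.0584).

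**Figure D3:**
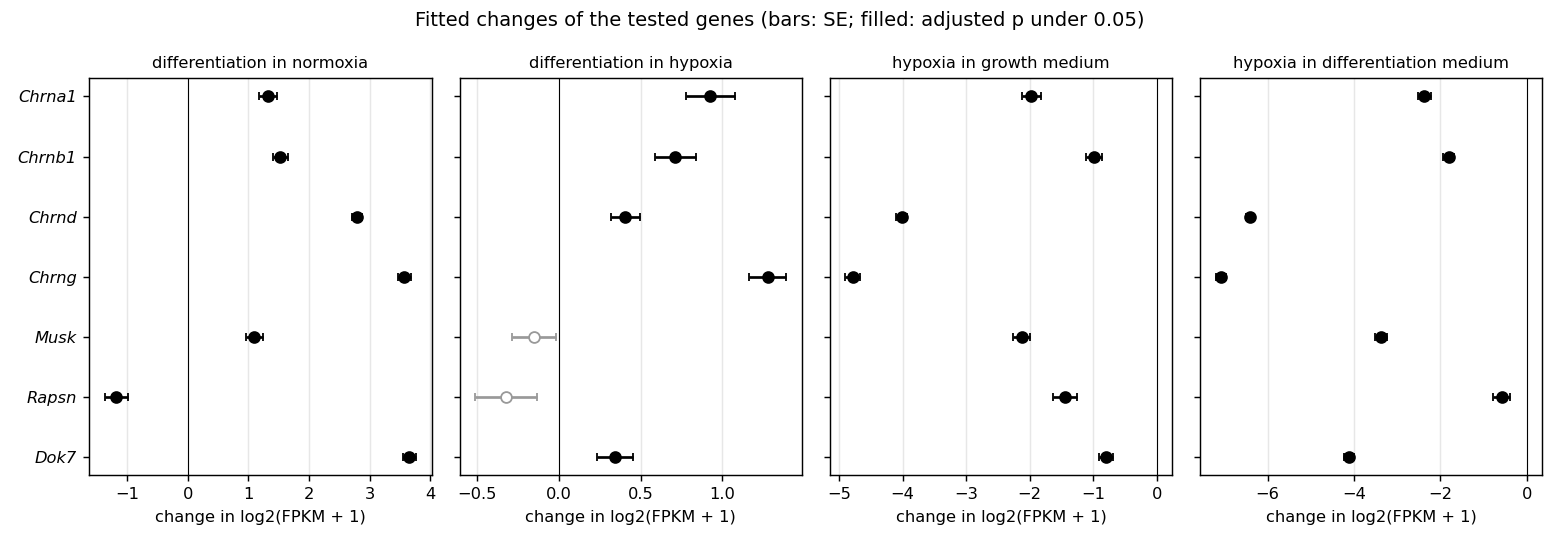
Fitted change in log2(FPKM + 1) of the 7 tested genes, 1 panel per comparison, with bars for the SE and filled points for an adjusted p under 0.05. Both hypoxia panels lie wholly below 0, and Rapsn is the single gene below 0 for differentiation in normoxia.

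These counts are read against all genes. For differentiation in normoxia, 6 of 7 genes were called higher where 25.5% of the 12389 tested genes were, and 1 of 7 lower where 41% were. In hypoxia, 5 were called higher against 23.3% of all genes, and 0 lower against 17.6%. This count of 5 became 3 with only the samples compared, where Chrnd and Dok7 were not tested. Their means were under 1 FPKM in both hypoxic groups, so they passed the filter through normoxic groups. The count also fell without either library of hypoxic growth medium. For hypoxia, 7 of 7 were called lower in growth medium, against 28% of all genes, and 7 of 7 in differentiation medium, against 27.7%. None was called higher, where 13.5% and 37.5% of all genes were. Dok7, which passed the filter through normoxic differentiation medium alone, had to differ there. The other 6 genes were 5 higher and 1 lower for differentiation in normoxia, and 6 lower for hypoxia in differentiation medium. Chrnd, among these 6, passed the filter through the normoxic groups alone, so its calls with hypoxia in either medium support nothing. The median log2 change of the 7 genes was 1.52 and 0.40 for differentiation in normoxia and in hypoxia, and -1.98 and -3.38 for hypoxia in growth and in differentiation medium. Over all genes tested these medians were -0.20, 0.07, -0.14 and 0.15. Scaling between libraries moved the background but not the direction of any of these genes: with median-of-ratios scaling the share of calls that were higher went from 38.4% to 53.6% for differentiation in normoxia, from 32.6% to 43.4% for hypoxia in growth medium and from 57.5% to 46.5% for hypoxia in differentiation medium. With upper-quartile scaling it went from 56.9% to 44.3% for differentiation in hypoxia and from 32.6% to 49.99% for hypoxia in growth medium. With median-of-ratios scaling the median change of all genes went from -0.20 to 0.03 for differentiation in normoxia, from 0.15 to -0.03 for hypoxia in differentiation medium and from 0.27 to -0.01 for the interaction described next.

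The interaction, which subtracts the change on differentiation in normoxia from the change in hypoxia, asks whether the response to differentiation medium depended on oxygen. It was called lower for 5 of the 7 genes, against 18.7% of all genes, and higher for 1, against 35.4%. Dok7 is among the 5, but it passed the filter through normoxic differentiation medium alone. That group enters the interaction with a minus sign, so the Dok7 call supports nothing. Dok7 had the largest (-3.31 ± 0.15, adjusted p = 1.42e-05), followed by Chrnd (-2.39 ± 0.13, adjusted p = 2.47e-05), Chrng (-2.30 ± 0.16, adjusted p = 7.65e-05), Musk (-1.25 ± 0.19, adjusted p = 0.00188) and Chrnb1 (-0.81 ± 0.18, adjusted p = 0.00873). For Chrng it depends on the pseudocount: with 0.1 in place of 1 it was 0.04 (adjusted p = 0.925). Chrnd was under 1 FPKM in hypoxia, where the log2(FPKM + 1) scale understates its rise. By group means Chrnd rose 7.22-fold on differentiation in normoxia and 2.38-fold in hypoxia. Rapsn had the opposite sign (0.86 ± 0.27, adjusted p = 0.0328), since its fitted fall was smaller in hypoxia, and the call was lost under 8 alternatives (adjusted p = 0.0530 to 0.116), including the replicate block (adjusted p = 0.0530), median-of-ratios scaling (0.54, adjusted p = 0.0823) and leaving out any of 5 libraries: A of normoxic growth medium, either of normoxic differentiation medium and either of hypoxic growth medium. Chrna1 was not called (-0.40 ± 0.21, adjusted p = 0.150), but was with median-of-ratios scaling (-0.72, adjusted p = 0.00933), with upper-quartile scaling (-0.61, adjusted p = 0.0214) and without B of hypoxic differentiation medium (-0.62, adjusted p = 0.00693). The median interaction of the 7 genes was -1.25, against 0.27 for all genes. With median-of-ratios scaling the share of interaction calls that were higher went from 65.5% to 47.3%.

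Chrnd and Chrng are neighbours in the RefSeq gene order. Of the protein-coding genes on either side of the pair, Eif4e2, a cap-binding protein gene, was at 42.1 and 38.6 FPKM in normoxic growth medium, 49.9 and 50.4 in differentiation medium at 21% oxygen, 24.5 and 22.9 in hypoxic growth medium, and 23.3 and 23.1 in hypoxic differentiation medium. Prss56, a protease gene on the other side, was between 0 and 0.492 FPKM. Psmc3, a proteasome gene beside Rapsn, was at 162.0 and 147.9, 148.7 and 157.7, 73.2 and 71.3, and 96.4 and 95.9 FPKM in the same order. Neighbours of other members differed in direction. Beside Chrnb1, Fgf11 was at 8.77 and 8.88, 19.1 and 21.1, 46.6 and 45.7, and 44.6 and 36.4 FPKM in that order. Zbtb4, on its other side, was also higher in every hypoxic library. Lpar1, beside Musk, was lower in every hypoxic library, and Lrpap1, beside Dok7, was between 27.5 and 38.2 FPKM throughout. The RefSeq gene 4930544D05Rik, which overlaps Chrne, was listed at 0 throughout. Non-coding RefSeq genes overlap Chrna1 and Rapsn and have no row in the table, and whether counting used strand is not given in the sources used here.

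The genes whose profile was most like the mean of the 7 tested genes were found by the Euclidean distance of centred log2(FPKM + 1) values over the 8 libraries, which fall into the 4 groups. They were Iffo1 (distance 0.560), Eno3 (0.576), Sema6a (0.609), Dusp13 (0.627), Kcnn3 (0.643), Ank1 (0.719), Dapk2 (0.846) and Sgca (0.917). Eno3 encodes muscle enolase, Kcnn3 a calcium-activated potassium channel and Sgca alpha-sarcoglycan. The nearest single genes were Slc11a2 for Chrna1 (0.692), Pdhx for Chrnb1 (0.197), Actn3 for Chrnd (1.30), Rbm24 for Chrng (2.21), Dapk2 for Musk (0.586) and Scrn2 for Rapsn (0.346). The 7 genes differed among themselves more than this: Musk lay 1.05 and Chrna1 1.36 from their mean, and Rapsn 4.19 and Chrng 4.59.

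Other genes of the junction were taken from lists of 85 symbols, of which 64 were tested. For differentiation in normoxia 30 of the 64 were higher and 18 lower, and for hypoxia in differentiation medium 20 were higher and 30 lower. Over all genes tested, 25.5% were higher and 41% lower in the first comparison, and 37.5% higher and 27.7% lower in the second, and each count below is to be set beside these shares. The median changes of the 64 genes were 0.33 and -0.34. Of the 64, 6 passed the filter on low values through normoxic differentiation medium alone (Erbb3, Camk2b, Actn2, Colq, Myf6 and Scn4a), and 1 through hypoxic differentiation medium alone (Wnt4), and had to differ there; their calls count among those given but support nothing, and those described below are given by their levels. Lrp4, Myod1, and the values of list genes in hypoxia were chosen for printing after they were seen.

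The nerve-derived or muscle-derived organisers and their receptors had 7 tested of 10. In normoxia 3 rose on differentiation and 1 fell, and hypoxia in differentiation medium raised 2 and lowered 4. Agrn (agrin) was at 14.8 and 14.6 FPKM in normoxic growth medium, 44.4 and 42.1 in differentiation medium at 21% oxygen, 9.28 and 10.1 in hypoxic growth medium, and 5.25 and 6.52 in hypoxic differentiation medium. It rose by 1.495 ± 0.11 on differentiation in normoxia (adjusted p = 4.32e-05) and fell by 0.64 ± 0.11 in hypoxia (adjusted p = 0.00516). Lrp4, the agrin receptor, was at 19.3 to 21.4 FPKM in 6 libraries and at 14.3 and 10.6 in hypoxic differentiation medium, where hypoxia lowered it by -0.65 ± 0.13 (adjusted p = 0.00466). Erbb3, a neuregulin receptor, was at 10.1 and 11.98 FPKM in normoxic differentiation medium and under 0.7 in the other 6 libraries. Nrg1 (neuregulin) went the other way, lower by -1.02 on differentiation in normoxia (adjusted p = 0.00161) and higher by 1.42 with hypoxia in differentiation medium (adjusted p = 0.000347).

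Of 19 tested genes of MuSK signalling, 7 rose and 9 fell on differentiation in normoxia. With median-of-ratios scaling the split was 9 and 7, and with 1 library left out there were 4 to 7 higher and 8 to 9 lower; the lowest count of 4 higher came without B of normoxic growth medium and without either library of normoxic differentiation medium. Hypoxia in differentiation medium raised 9 and lowered 6. Camk2b, a calcium-dependent kinase, was at 4.85 and 4.05 FPKM in normoxic differentiation medium and between 0.242 and 1.01 elsewhere. Dnaja3, a co-chaperone that binds MuSK, rose by 1.72 (adjusted p = 7.27e-06). The kinases Pak1 and Abl1 changed by -2.33 (adjusted p = 2.94e-06) and -1.74 (adjusted p = 6.15e-05). With hypoxia in differentiation medium Pak1 was higher (1.33, adjusted p = 3.04e-05).

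The 12 scaffold genes gave 6 higher and 4 lower on differentiation in normoxia, and 2 higher and 5 lower with hypoxia in differentiation medium. With median-of-ratios scaling these were 7 and 2, and 1 and 7; with upper-quartile scaling the second was 1 and 6. Actn2, an actin cross-linker, was at 43.6 and 40.7 FPKM in normoxic differentiation medium and below 0.05 in the other libraries. Sntb1, a syntrophin, was at 62.4 and 68.2 there and between 0.745 and 1.55 elsewhere (4.79, adjusted p = 3.73e-07). Its relative Sntb2 was lower (-0.95, adjusted p = 0.0104), a call lost without A of normoxic differentiation medium (adjusted p = 0.0747). Pdzrn3, a ubiquitin ligase that acts on MuSK, was lower by -1.29 (adjusted p = 0.000226).

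The cleft and basal lamina included a gene that ran against the receptors under hypoxia, Ache. Of 8 tested genes, 5 rose and 2 fell on differentiation in normoxia; with hypoxia in differentiation medium 2 were higher and 6 lower, which became 2 and 3 without A of normoxic differentiation medium. Ache, acetylcholinesterase, which breaks down the transmitter, was at 0.278 and 0.430 FPKM in normoxic growth medium, 1.83 and 1.93 in differentiation medium at 21% oxygen, 27.8 and 26.6 in hypoxic growth medium, and 15.1 and 9.51 in hypoxic differentiation medium. Every hypoxic library was above every normoxic one. Hypoxia raised it 76.8-fold in growth medium (4.38 ± 0.20, adjusted p = 3.76e-05) and 6.56-fold in differentiation medium (2.18 ± 0.20, adjusted p = 0.000107). Differentiation raised it 5.31-fold in normoxia (adjusted p = 0.00266) and lowered it 2.21-fold in hypoxia (adjusted p = 0.00574), and the interaction was -2.20 ± 0.28 (adjusted p = 0.000873). Lama2, a laminin chain, rose by 1.59 on differentiation in normoxia (adjusted p = 4.21e-05) and was lower with hypoxia in differentiation medium (-2.90, adjusted p = 2.90e-06). Lamb2, the synaptic laminin beta chain, and Nid2, a nidogen, were lower on differentiation in normoxia (-1.41, adjusted p = 1.94e-05, and -1.47, adjusted p = 2.22e-05). Like Ache, Lamb2 was higher with hypoxia in growth medium (0.61, adjusted p = 0.00213) and in differentiation medium (1.36, adjusted p = 2.08e-05).

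Of 9 tested transcription factors of synaptic and receptor genes, 4 rose and 1 fell on differentiation in normoxia, or 6 and 2 with only the samples compared. With hypoxia in differentiation medium 6 were lower and 0 higher. Myog (myogenin) was at 13.3 and 8.83 FPKM in normoxic growth medium, 2576 and 2642 in differentiation medium at 21% oxygen, 0.342 and 0.442 in hypoxic growth medium, and 4.49 and 2.14 in hypoxic differentiation medium. It rose by 7.78 ± 0.28 on differentiation in normoxia (adjusted p = 2.06e-06) and by 1.58 ± 0.28 in hypoxia (adjusted p = 0.00561). Myod1 (MyoD) was at 138.7 and 108.1, 180.5 and 171.5, 25.1 and 26.1, and 6.95 and 11.8 FPKM in the same order. Its difference on differentiation in normoxia was not called (0.52, adjusted p = 0.0782), and hypoxia lowered it by -2.21 ± 0.22 in growth medium (adjusted p = 0.000546) and by -4.13 ± 0.22 in differentiation medium (adjusted p = 1.05e-05). Etv5, an ETS factor acting downstream of neuregulin at the synapse, rose by 1.05 on differentiation in normoxia (adjusted p = 0.00277) and was lower with hypoxia in differentiation medium (-2.45, adjusted p = 5.32e-05). Its relative Etv4 was lower on differentiation in normoxia (-1.97, adjusted p = 0.00576).

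**Figure D4:**
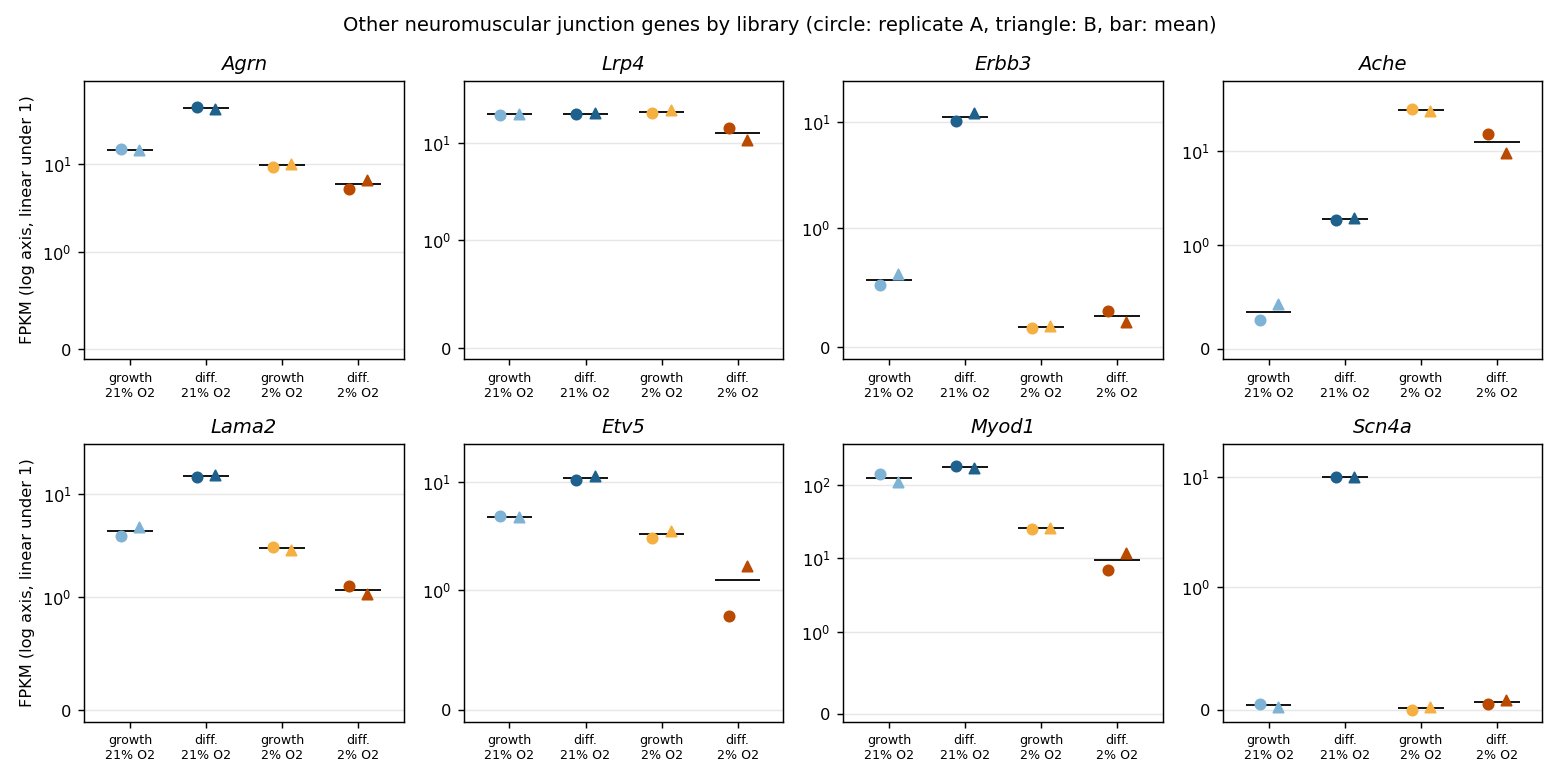
FPKM of 8 other junction genes in each library, on a logarithmic axis that is linear under 1 FPKM, with circles for replicate A, triangles for B and bars for the mean of 2 libraries. Ache is the single panel in which every hypoxic library is above every normoxic one.

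The other 11 nicotinic subunits of nerve and other tissues did not reach the filter, and none exceeded the 0.353 FPKM of Chrnb2 in A of normoxic differentiation medium. Of 4 tested genes for receptor assembly and other synaptic membrane proteins, all 4 rose on differentiation in normoxia, and with hypoxia in differentiation medium 1 was higher and 3 lower, or 0 and 3 with median-of-ratios scaling. Scn4a, the muscle sodium channel, was at 10.1 FPKM in both libraries of normoxic differentiation medium and below 0.08 elsewhere. Ncam1, a cell adhesion molecule, rose by 1.92 (adjusted p = 5.89e-06). Of 5 genes whose loss impairs glycosylation and the junction, 1 rose, Alg2 (0.49, adjusted p = 0.00215), and 1 fell, Dpagt1 (-0.77, adjusted p = 0.00117), on differentiation in normoxia, or 2 and 1 with median-of-ratios scaling. With hypoxia in differentiation medium 4 of the 5 were higher and 0 lower, where 37.5% and 27.7% of all genes were, which became 2 with median-of-ratios scaling and without B of normoxic differentiation medium and 1 without A.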

How the data were processed

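The series has 24 samples; 8 H3K27me3 and 8 input libraries were not analysed here. RNA libraries were stranded and made from total RNA, per the labels' protocols. The authors deposited 1 table of FPKM per gene and library, and the submitters' processing notes name STAR 2.5.1b, Cufflinks 2.2.1 and mm9 without roles. Scaling between libraries and the use of strand are not given in the sources used here, and absolute depth is unknown. FPKM values were used as deposited: log2(FPKM + 1) was fitted in R 4.3.3 by limma 3.58.1 with a variance trend on intensity, over 8 libraries and 4 group means (4 residual and 2.61 prior degrees of freedom). Of 24043 genes, 12389 whose highest group mean reached 1 FPKM were tested, two-sided, with Benjamini-Hochberg adjustment over them and a threshold of 0.05. The fit was tested on simulated data.

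The members and lists were chosen with earlier results of these data known. Named were all 8 members, from each list the genes called for differentiation in normoxia with the largest rise and fall (2 each at most), and the genes nearest in profile, of which the one for Dok7 is not reported here. Alternatives were pseudocounts of 0.1 and 0.5, no filter, other scaling, variance moderation, sample weights, a replicate block, only the samples compared, and each library left out.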

Additional observations from a re-analysis of the deposited data

Results flagged for a closer look

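The differentiation response differed between the oxygen levels, by the limma interaction test, for 6 of the 7 tested genes. Calls were lower for 5, against 18.7% of all genes tested, and higher for 1, against 35.4%. The interaction, on the log2(FPKM + 1) scale, was -3.31 for Dok7, -2.39 for Chrnd, -2.30 for Chrng, -1.25 for Musk, -0.81 for Chrnb1 and 0.86 for Rapsn. Because Dok7 passed the filter through normoxic differentiation medium alone, its interaction call supports nothing. For Dok7, Chrnd and Chrnb1 both changes were rises and the rise was smaller in hypoxia. For Chrng both changes were rises, and which was larger depends on the pseudocount, as given below. For Musk the change in hypoxia was not called, and for Rapsn the fall was smaller in hypoxia and not called.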

How the results depend on the processing

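The number of tested genes called for differentiation in hypoxia was 5 and became 3 with only the samples compared. In that setting Chrnd (means 0.306 and 0.730 FPKM) and Dok7 (0.0881 and 0.381) fell under the filter and were not tested. Dok7 was likewise untested there for hypoxia in growth medium. The count for differentiation in hypoxia also fell in some fits with 1 library left out. Over all alternatives the count of called genes was 7 to 8 for differentiation in normoxia, 6 to 8 for hypoxia in growth medium and in differentiation medium, and 5 to 7 for the interaction. The 8 comes from the fit without a filter, in which Chrne was called too. One sign reversed: the Chrng interaction was 0.0401 (adjusted p = 0.925) at a pseudocount of 0.1. Chrng was at 0 and 0.0597 FPKM in hypoxic growth medium, under that pseudocount. Its change on differentiation in normoxia was 3.57 with a pseudocount of 1 and 3.62 with 0.1. The cause of the reversal was not tested. Of 1434 single-gene values under alternatives, 1397 kept direction and side of the threshold, 32 lost the call and 4 gained it. No difference between A and B was shared across groups: the correlation of their deviations from the group means ranged from -0.17 to 0.04 over pairs of groups. Whether libraries of the same letter were cultured or run together is not given, and these correlations cannot tell. With the replicate block, Dok7 on differentiation in hypoxia (0.34, adjusted p = 0.0584) and the Rapsn interaction (0.86, adjusted p = 0.0530) lost their calls. Depth limits Chrne, and Chrng and Dok7 in hypoxic growth medium, whose levels rest on few fragments. Where a library was left out, a lone library was assumed to vary like the other groups.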
